A study of Mus musculus with 12 samples.

Results

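The genes examined here encode the insulin-like growth factors, their receptors and their binding proteins: the ligands Igf1 and Igf2, the receptors Igf1r and Igf2r, and the binding protein genes Igfbp2, Igfbp3, Igfbp4, Igfbp5, Igfbp6 and Igfbp7. They were chosen by name, as the probe sets that the array annotation assigns to exactly 1 gene symbol, that of a member. All 10 genes were found, with 1 probe set each, among 19934 genes and 21780 probe sets with 1 symbol. Igf1 and Igf2 are secreted ligands that act through the receptor tyrosine kinase Igf1r, which signals by way of adaptor proteins and the PI3K-AKT-mTOR cascade, while Igf2r carries Igf2 to lysosomes and sends no mitogenic kinase signal. The binding proteins hold the ligands outside the cell, prolong their life and, depending on the protein, limit or assist their access to the receptor until proteases cut them. In the brain these genes serve the growth and survival of neural progenitors and oligodendrocyte lineage cells.

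Whole-transcript arrays were used to read gene expression in 12 cultures of mouse brain cells, to compare glioblastoma cells that arose from different cells of origin. All mice lacked Arf (Arf-/-), a tumour suppressor, and carried tv-a, which lets an avian retrovirus enter, under a promoter that sets which cells can be infected. The tumour groups were mGC1_GFAP from the G/tv-a line (Gfap promoter, active in astrocytes and stem cells), mGC2_NES from the N/tv-a line (Nes promoter, active in progenitors) and mGC3_CNP from the C/tv-a line (Cnp promoter, active in the oligodendrocyte lineage), with 3 cultures each. Their tumours were raised by injecting adult brain with DF-1 chicken cells that release the virus RCAS-PDGFB-HA, which encodes the growth factor PDGFB, and origin and mouse line therefore coincide. The NSC group held 3 neural stem cell cultures from the subventricular zone of adult mice, 1 per line. All cultures were listed with the same medium, which contained insulin at 20 ng/ml and named no insulin-like growth factor, and none was treated. No exact ages are given in the labels used here, nor whether the cultures of a group came from separate animals. The p-values below hence measure only how far these cultures lay apart, which may in part be technical.

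Values are RMA summaries on the log2 scale, where a difference of 1 is a doubling, and each culture was read on 1 array. Array medians lay between 7.60 and 7.66. The testis genes Odf1, Prm2, Tnp1 and Tnp2, whose transcripts brain cells should lack, read at most 7.42, which serves below as the background reference. Where only the lower of both means was at or below it, a called difference is a lower bound on the size. Where both means were, a call does not show that the gene was present on either side. Probe sets differ in sensitivity, so no level of a gene is set against that of another. Summed as array means, the 8 oligodendrocyte precursor markers read 10.17 to 10.39 in NSC and 12.59 to 12.79 in tumour cultures, the 8 neural stem cell markers 11.58 to 11.75 and 9.89 to 10.37, and the 8 astrocyte markers 9.84 to 10.15 and 8.22 to 8.68. Of these lists, 5 of 8 precursor markers rose, 5 of 8 stem cell markers fell, and of 8 astrocyte markers 5 fell while S100b (4.62) and Aldoc (0.67) rose. The cultures on both sides thus held different amounts of glial lineage transcripts, and in bulk RNA fewer cells of a type and less RNA per cell cannot be told apart. The part of these lists in the differences below was not tested. The G/tv-a NSC culture read Xist at 11.86 together with a Y-linked mean of 8.39 and the spermatid gene Prm1 at 13.49, and mGC2_NES replicate 2 read Xist at 9.27 with a Y-linked mean of 4.89. Calls and list counts below that change without either of these arrays are given without it too. In the other arrays Prm1 read up to 7.77.

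Of the 10 genes, 6 differed between tumour and NSC cultures at an adjusted p under 0.05 by limma, 2 of them higher and 4 lower in tumour cultures. Igf1r and Igf2r rose, and Igfbp2, Igfbp3, Igfbp4 and Igfbp5 fell, while Igf1, Igf2, Igfbp6 and Igfbp7 did not pass. Among all probe sets 36.7% were called in this comparison, 17.6% higher and 19.2% lower, so that calls were common throughout the arrays. Of the 10 genes, 4 were called with a difference of at least 2-fold, all of them falls, against 7.36% of all probe sets in either direction. The readings of tumour and NSC cultures did not overlap for 5 genes, against 27.3% of all probe sets. The median difference was -0.014 over the members and 0.0072 over all probe sets.

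**Figure D1:**
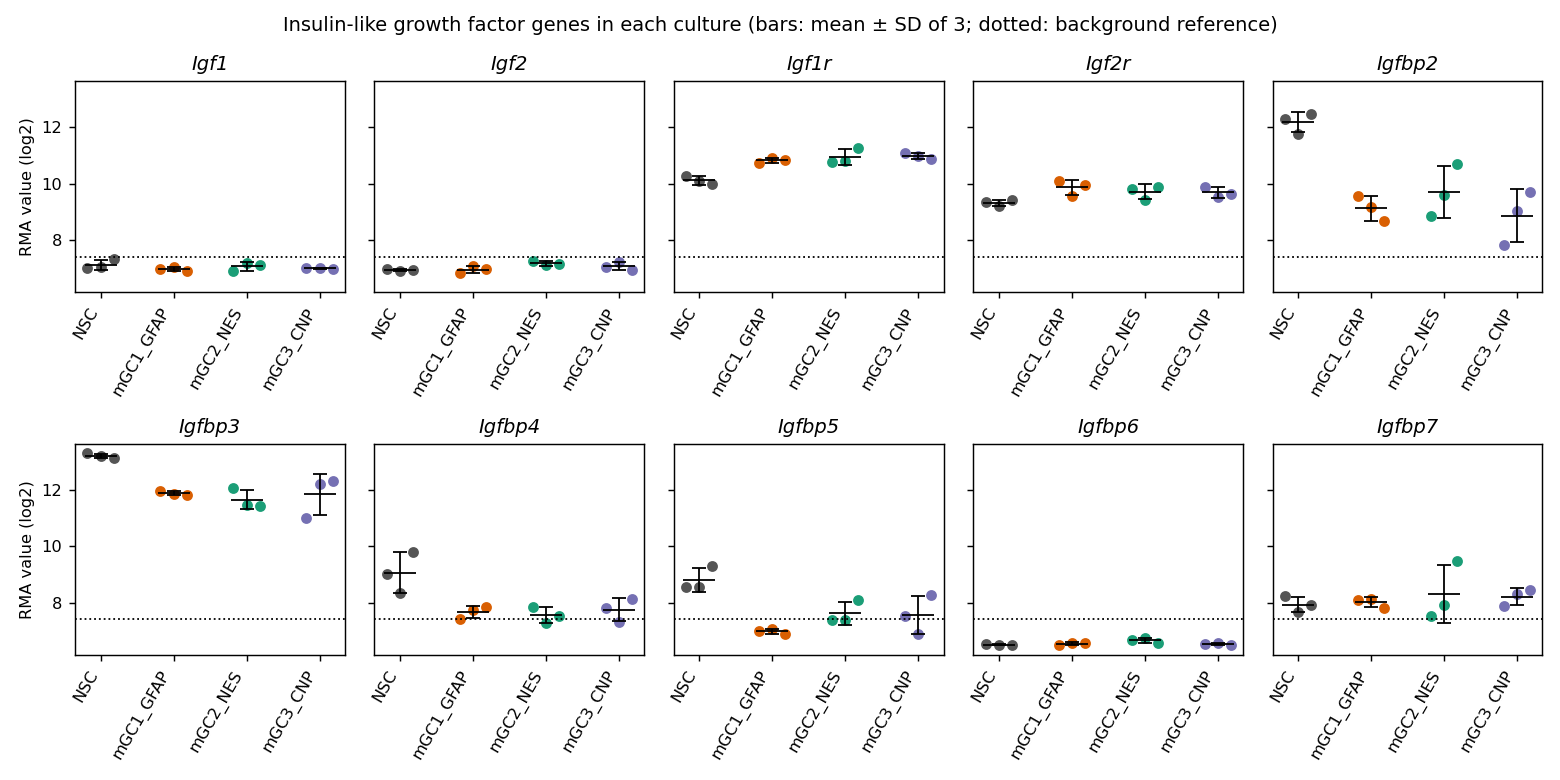
RMA values (log2) of the 10 genes in each of the 12 cultures, 1 point per culture, with the mean and SD of the 3 cultures per group as black bars and the background reference as a dotted line. Igf1r lay higher and Igfbp2 to Igfbp5 lay lower in every tumour culture than in every NSC culture, and Igf1, Igf2 and Igfbp6 lay under the dotted line throughout.

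The 6 genes that were called are shown with the 250 bases before their annotated start in RefSeq (GRCm38.p6), since these windows hold the proximal promoters of the genes whose levels moved. For Igfbp2 the first of 2 windows is shown. The strands are plus for Igf1r (chr7:67952007-67952256), Igfbp2 (chr1:72824230-72824479) and Igfbp4 (chr11:99040994-99041243), and minus for Igf2r (chr17:12769707-12769956), Igfbp3 (chr11:7213924-7214173) and Igfbp5 (chr1:72874866-72875115). Each runs 5′ to 3′ in the direction of transcription, and capitals mark TATAAA and GGGCGG, the core letters of a TATA box and of a GC box, found on either strand.
Igf1r: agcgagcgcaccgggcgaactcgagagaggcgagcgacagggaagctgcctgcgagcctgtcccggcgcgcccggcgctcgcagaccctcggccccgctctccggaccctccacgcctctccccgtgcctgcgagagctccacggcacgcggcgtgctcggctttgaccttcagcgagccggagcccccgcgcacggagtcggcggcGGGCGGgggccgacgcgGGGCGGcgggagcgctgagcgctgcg
Igf2r: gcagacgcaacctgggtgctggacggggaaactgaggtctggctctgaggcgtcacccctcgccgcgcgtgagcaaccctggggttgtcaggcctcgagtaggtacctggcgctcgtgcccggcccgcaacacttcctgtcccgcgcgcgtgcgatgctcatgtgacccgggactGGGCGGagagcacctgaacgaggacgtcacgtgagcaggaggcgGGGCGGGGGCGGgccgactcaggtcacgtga
Igfbp2: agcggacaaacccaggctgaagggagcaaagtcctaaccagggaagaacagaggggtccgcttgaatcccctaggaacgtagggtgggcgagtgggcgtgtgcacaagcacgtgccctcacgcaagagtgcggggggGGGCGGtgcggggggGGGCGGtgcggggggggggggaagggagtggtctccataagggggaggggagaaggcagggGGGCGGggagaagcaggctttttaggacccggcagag
Igfbp3: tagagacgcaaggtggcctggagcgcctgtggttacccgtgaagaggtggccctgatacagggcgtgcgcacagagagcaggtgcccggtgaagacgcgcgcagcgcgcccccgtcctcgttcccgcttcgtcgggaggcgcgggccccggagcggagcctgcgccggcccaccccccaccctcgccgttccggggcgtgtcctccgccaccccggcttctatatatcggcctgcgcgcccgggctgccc
Igfbp4: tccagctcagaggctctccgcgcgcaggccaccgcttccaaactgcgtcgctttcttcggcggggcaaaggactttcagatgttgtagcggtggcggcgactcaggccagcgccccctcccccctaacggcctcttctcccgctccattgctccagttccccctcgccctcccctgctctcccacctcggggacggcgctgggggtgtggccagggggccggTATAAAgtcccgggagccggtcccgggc
Igfbp5: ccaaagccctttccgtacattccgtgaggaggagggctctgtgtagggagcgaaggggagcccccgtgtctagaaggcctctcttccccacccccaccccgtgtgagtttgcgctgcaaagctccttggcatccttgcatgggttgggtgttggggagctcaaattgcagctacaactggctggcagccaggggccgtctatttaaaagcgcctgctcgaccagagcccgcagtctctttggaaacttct
The Igf1r window held GGGCGG at 2 places, that of Igf2r at 3 and that of Igfbp2 at 3, and the only TATAAA among these windows lay in Igfbp4, its first base 28 bases before the start. Over all 32851 windows of the same length, 32.7% held GGGCGG and 12.4% held TATAAA. The windows of Igfbp3 and Igfbp5 held neither, which says only that these letters are not there. G and C made up 77.6% of the Igf1r window, 69.2% of the Igf2r window, 67.2% of the Igfbp2 window, 73.2% of the Igfbp3 window, 69.2% of the Igfbp4 window and 58.8% of the Igfbp5 window, against a median of 52.4% over all windows. The forkhead site GTAAACA, searched on both strands because FoxO factors act downstream of the receptor, occurred in 3.17% of all windows and in no window of the 10 genes.

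Neither ligand gene was read above background. Igf1, a growth factor made by neurons and glia, microglia among them, read 7.01, 7.06 and 7.32 in the C/tv-a, N/tv-a and G/tv-a NSC cultures. In tumour cultures it read 6.98, 7.05 and 6.92 in mGC1_GFAP, 6.90, 7.19 and 7.13 in mGC2_NES, and 7.01, 7.02 and 6.98 in mGC3_CNP. All 12 values lay below 7.42 and the groups overlapped, with a difference of -0.11 ± 0.08 (limma adjusted p = 0.331). The microglial markers Aif1, Csf1r, Itgam and Tmem119 also lay below the reference in both classes of culture, while Cd68, Trem2 and Cx3cr1 lay above it in both. The array means of the 10 microglial markers, of which 3 lay above it in every group, were 6.57 to 6.83. Of the 10, Cd68 (-0.57) and P2ry12 (-0.81, both means below the reference) fell in tumour cultures, and 0 rose.

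Igf2, the imprinted fetal growth factor, read 6.97, 6.90 and 6.94 in the C/tv-a, N/tv-a and G/tv-a NSC cultures. Tumour cultures read 6.84, 7.07 and 6.97 in mGC1_GFAP, 7.27, 7.13 and 7.14 in mGC2_NES, and 7.06, 7.21 and 6.93 in mGC3_CNP. Again all 12 values lay below 7.42, and the difference of tumour from NSC cultures was 0.13 ± 0.07 (adjusted p = 0.174). Only mGC2_NES lay wholly above NSC, by 0.24 ± 0.09 (adjusted p = 0.0463), a call below the reference on both sides, which does not show that Igf2 was present in either. That call was lost without any of the 3 NSC or 3 mGC2_NES arrays in turn, at 0.20 to 0.27, and without mGC1_GFAP replicate 3 or mGC3_CNP replicate 1, at 0.24 each. It was also lost when all probe sets of the table were tested (adjusted p = 0.0503).

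The receptor genes moved upward. Igf1r, the kinase through which both ligands signal, read 10.27, 10.11 and 9.98 in the C/tv-a, N/tv-a and G/tv-a NSC cultures. It read 10.74, 10.91 and 10.84 in mGC1_GFAP, 10.76, 10.79 and 11.27 in mGC2_NES, and 11.10, 10.98 and 10.89 in mGC3_CNP. Every tumour culture lay above every NSC culture. The rise was 0.80 ± 0.11 (95% interval 0.57 to 1.03, a 1.74-fold difference, limma adjusted p = 9.94e-05), from 10.12 ± 0.15 (SD, n = 3) to 10.92 ± 0.17 (SD, n = 9). Against the same 3 NSC arrays, mGC1_GFAP rose by 0.71 ± 0.13, mGC2_NES by 0.82 ± 0.13 and mGC3_CNP by 0.87 ± 0.13 (adjusted p = 0.00151, 0.000446 and 0.000352).

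Igf2r, the receptor that clears Igf2 and sorts lysosomal enzymes, read 9.34, 9.21 and 9.43 in the C/tv-a, N/tv-a and G/tv-a NSC cultures. It read 10.10, 9.57 and 9.94 in mGC1_GFAP, 9.83, 9.42 and 9.90 in mGC2_NES, and 9.90, 9.53 and 9.62 in mGC3_CNP. The lowest tumour value, mGC2_NES replicate 2, fell just under the highest NSC value, so the sides overlapped. The rise was 0.43 ± 0.13 (95% interval 0.14 to 0.71, 1.35-fold, adjusted p = 0.0216). It lost its call without the C/tv-a NSC array (0.44, adjusted p = 0.0631) or the N/tv-a NSC array (0.37, adjusted p = 0.10). Of the groups only mGC1_GFAP was called, at 0.54 ± 0.16 (adjusted p = 0.0236), against 0.39 ± 0.16 in mGC2_NES (adjusted p = 0.0813) and 0.36 ± 0.16 in mGC3_CNP (adjusted p = 0.121). The mGC1_GFAP call was lost without the C/tv-a NSC (0.55), the N/tv-a NSC (0.48), mGC1_GFAP replicate 1 (0.43) or mGC1_GFAP replicate 3 (0.50), and mGC2_NES gained one without its own replicate 2 (0.54) or mGC1_GFAP replicate 2 (0.39). The groups were not shown to differ from each other, as the comparison of tumour groups below reports.

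The binding protein genes included the widest differences. Igfbp2, the main binding protein of the fetal brain and cerebrospinal fluid, read 12.31, 11.78 and 12.48 in the C/tv-a, N/tv-a and G/tv-a NSC cultures. It read 9.56, 9.16 and 8.68 in mGC1_GFAP, 8.86, 9.61 and 10.70 in mGC2_NES, and 7.84, 9.04 and 9.70 in mGC3_CNP. All tumour cultures lay below all NSC cultures, and they also lay far apart from each other, over 2.86 on the log2 scale. Igfbp2 fell by 2.95 ± 0.41 on the log2 scale (95% interval of the difference -3.84 to -2.06, limma adjusted p = 0.000134), a 7.72-fold lower level, from 12.19 ± 0.37 (SD, n = 3) to 9.24 ± 0.79 (SD, n = 9). Only 0.53% of all probe sets had a lower difference. The group mGC1_GFAP differed from NSC by -3.06 ± 0.50, mGC2_NES by -2.46 ± 0.50 and mGC3_CNP by -3.33 ± 0.50 (adjusted p = 0.000688, 0.00229 and 0.000364).

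Igfbp3, the chief carrier of these ligands in serum, read 13.30, 13.19 and 13.14 in the C/tv-a, N/tv-a and G/tv-a NSC cultures. It read 11.97, 11.86 and 11.84 in mGC1_GFAP, 12.06, 11.47 and 11.45 in mGC2_NES, and 11.01, 12.23 and 12.32 in mGC3_CNP. The sides did not overlap, and mGC3_CNP replicate 1 was the lowest of all. The fall was 2.66-fold (difference -1.41 ± 0.23, adjusted p = 0.000519), and the groups differed from NSC by -1.32 ± 0.29, -1.55 ± 0.29 and -1.36 ± 0.29 in the order mGC1_GFAP, mGC2_NES and mGC3_CNP (adjusted p = 0.00442, 0.00126 and 0.00349).

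Igfbp4, a binding protein that mostly restrains ligand action until the protease Pappa cuts it, read 9.03, 8.36 and 9.81 in the C/tv-a, N/tv-a and G/tv-a NSC cultures. It read 7.44, 7.75 and 7.84 in mGC1_GFAP, 7.85, 7.30 and 7.54 in mGC2_NES, and 7.82, 7.32 and 8.13 in mGC3_CNP. No tumour value reached the lowest NSC value, and 7 of 9 tumour values lay above the reference. Only 4 lay above the 7.77 that Prm1 reached, and against that level the difference is a lower bound. The fall was 2.64-fold (difference -1.40 ± 0.26, adjusted p = 0.00106), or -1.03 without the G/tv-a NSC culture, whose value was the highest (adjusted p = 0.00476). For mGC1_GFAP the difference from NSC was -1.39 ± 0.31, for mGC2_NES -1.50 ± 0.31 and for mGC3_CNP -1.31 ± 0.31 (adjusted p = 0.00584, 0.00284 and 0.00771).

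Igfbp5, a matrix-associated binding protein made in the developing and injured nervous system, read 8.58, 8.58 and 9.29 in the C/tv-a, N/tv-a and G/tv-a NSC cultures. It read 7.0, 7.08 and 6.91 in mGC1_GFAP, 7.40, 7.39 and 8.11 in mGC2_NES, and 7.54, 6.90 and 8.28 in mGC3_CNP. Tumour values lay below all NSC values, and all 3 of mGC1_GFAP were under the reference. Igfbp5 fell by at least 2.67-fold (difference -1.41 ± 0.26, adjusted p = 0.00103), a lower bound since the tumour mean of 7.40 lay under the reference. For mGC1_GFAP the difference from NSC was -1.82 ± 0.32, again a lower bound, for mGC2_NES -1.18 ± 0.32 and for mGC3_CNP -1.24 ± 0.32 (adjusted p = 0.00108, 0.0121 and 0.0107). The means of mGC2_NES (7.63) and mGC3_CNP (7.57) lay under the 7.77 that Prm1 reached. Against that level their differences are lower bounds too. The mGC2_NES call was lost without the G/tv-a NSC culture (-0.95, adjusted p = 0.0521).

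Igfbp2 and Igfbp5 lie next to each other on chromosome 1 among the measured protein-coding genes of the RefSeq order, and both fell. Their outer neighbours, the ribosomal protein gene Rpl37a (-0.08 ± 0.05, adjusted p = 0.283) and Tnp1 (-0.10 ± 0.06, adjusted p = 0.251, below the reference), were not called. Igfbp3 stands beside Igfbp1 (0.01 ± 0.07, adjusted p = 0.930), which read 6.94 in tumour and 6.93 in NSC cultures, both below the reference, and beside Tns3, which rose by 1.28 ± 0.16 (adjusted p = 6.64e-05). Igfbp4 stands beside the topoisomerase gene Top2a, called at -0.62 ± 0.15 (adjusted p = 0.00684). Top2a read 4.96 in tumour and 5.58 in NSC cultures, both below the reference, which does not show that it was present in either. The other neighbour of Igfbp4, Tns4 (0.11 ± 0.07, adjusted p = 0.257, below the reference), was not called. Called neighbours also flanked members that were not called, Spryd3 (0.40 ± 0.08) and Csad (0.50 ± 0.08) at Igfbp6, and Polr2b (-0.35 ± 0.05) and Adgrl3 (1.06 ± 0.07) at Igfbp7. Beside Igf2r, Slc22a2 was called at 0.18 ± 0.05 (limma adjusted p = 0.0200), with both means below the reference, and Mas1 (0.04 ± 0.09) was not called. The neighbours of Igf1, Igf2 and Igf1r were not called.

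The remaining binding protein genes did not pass. Igfbp6, which prefers Igf2, read between 6.49 and 6.77 in all 12 cultures, all below the reference, with a difference of 0.08 ± 0.05 (adjusted p = 0.274). It was not called in mGC2_NES, at 0.16 ± 0.06 (adjusted p = 0.0712), but was without mGC2_NES replicate 3 (0.21, adjusted p = 0.0325), with both means below the reference. Igfbp7, a vessel-associated relative that binds these ligands weakly, read 8.23, 7.69 and 7.92 in the C/tv-a, N/tv-a and G/tv-a NSC cultures. It read 8.10, 8.15 and 7.83 in mGC1_GFAP, 7.52, 7.93 and 9.47 in mGC2_NES, and 7.89, 8.33 and 8.44 in mGC3_CNP. The sides overlapped, with mGC2_NES replicate 3 well above the rest. The difference was 0.24 ± 0.32 (95% interval -0.45 to 0.94, adjusted p = 0.617), or 0.05 without that array, an interval that reaches from a lower to a clearly higher level in tumour cultures. The 8 endothelial markers read 6.52 to 6.71 and the 11 pericyte and fibroblast markers 6.49 to 6.64 as array means. Above the reference lay 0 endothelial markers in NSC, 1 in mGC1_GFAP, 2 in mGC2_NES and 1 in mGC3_CNP, and 3 pericyte and fibroblast markers in every group. Vwf (7.30 in NSC, 7.71 in tumour cultures) and Pecam1 rose and Emcn fell, Pecam1 and Emcn with both means below the reference. Of the pericyte and fibroblast markers 2 rose and 1 fell. The part of these markers in the Igfbp7 value was not tested.

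**Figure D2:**
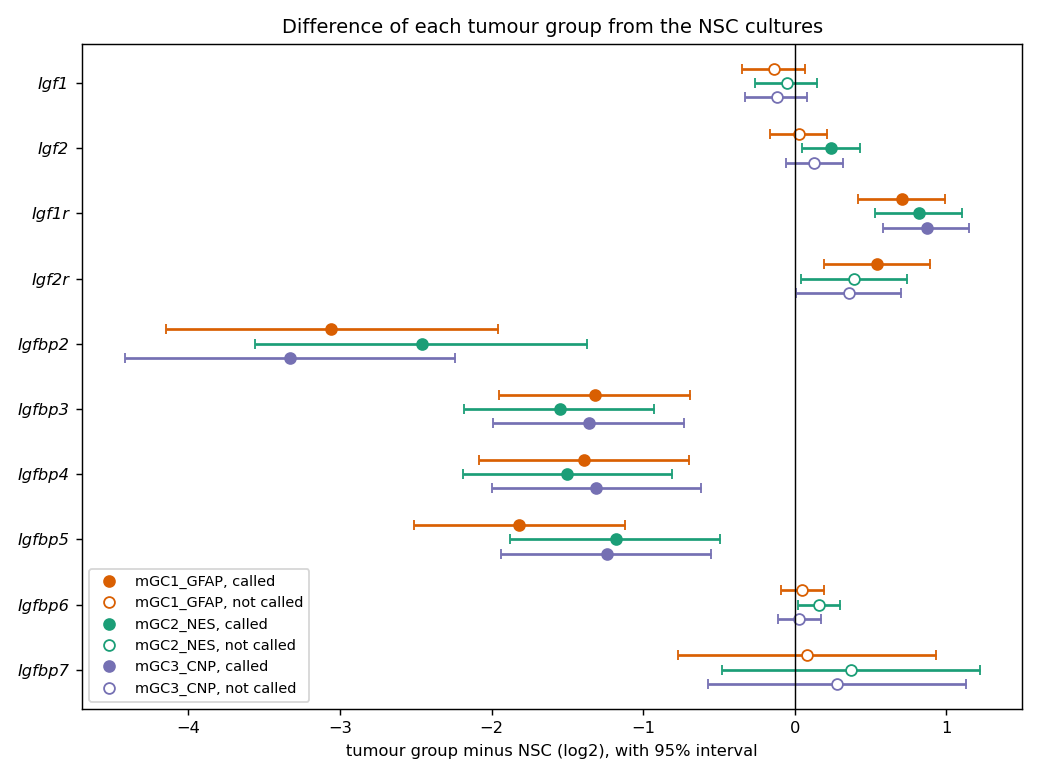
Difference of each tumour group from the 3 NSC cultures (log2, horizontal axis) for each gene, with the 95% interval from limma as a bar and filled points for an adjusted p under 0.05. The points of Igfbp2 to Igfbp5 lie left of 0 in all groups and those of Igf1r right of it, and the widest bars belong to Igfbp2, from -4.42 to -1.37.

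By tumour group, 6 of 10 genes were called in mGC1_GFAP (29.3% of all probe sets), 6 in mGC2_NES (34.9%) and 5 in mGC3_CNP (30.3%). Igf1r, Igfbp2, Igfbp3, Igfbp4 and Igfbp5 were among the calls in all groups, joined by Igf2r in mGC1_GFAP and by Igf2 in mGC2_NES. These comparisons share the NSC arrays and are no independent repeats of each other.

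**Figure D3:**
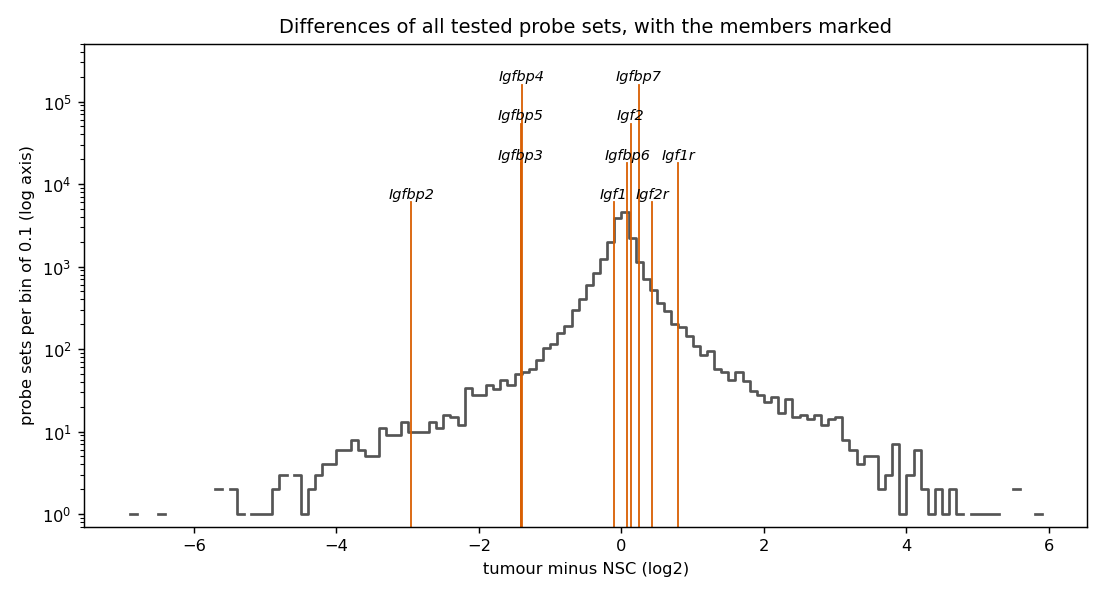
Number of probe sets per bin of 0.1 (log axis) by their tumour minus NSC difference (log2) over all 21780 tested probe sets, with the 10 genes marked by vertical lines. Igfbp2 at -2.95 lies in the sparse left tail, while Igfbp3, Igfbp4 and Igfbp5 share a place near -1.4 and Igf1, Igf2, Igfbp6 and Igfbp7 lie in the central peak.

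The study set tumours of different cells of origin against each other, and no member was called between the tumour groups. By the moderated F test in limma 0 of 10 genes were called, against 4.05% of all probe sets, and 0 had an unadjusted p under 0.05, against 19.5%. In pairs, 0 were called between mGC1_GFAP and mGC2_NES (6.13% of all probe sets), 0 between mGC1_GFAP and mGC3_CNP (0.487%) and 0 between mGC2_NES and mGC3_CNP (0.459%). At an unadjusted p under 0.05 there was 1 gene in the first pair, Igf2 (20.6% of all probe sets), and 0 in the pairs with mGC3_CNP (12.9% for mGC1_GFAP and 13.3% for mGC2_NES). Igf2 differed by -0.22 ± 0.09 (limma adjusted p = 0.221), with every value below the reference.

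The intervals leave room for sizeable differences. Between mGC1_GFAP and mGC2_NES, the arrays did not overlap for Igf2 and Igfbp5, 2 of 10 genes against 26.5% of all probe sets. Igfbp5 differed there by -0.64 ± 0.31 (95% interval -1.34 to 0.07, adjusted p = 0.298), or by -0.40 without mGC2_NES replicate 3. Only that replicate, at 8.11, lay above the reference, and the other Igfbp5 values of both groups lay below it. Igfbp2 differed by -0.59 ± 0.53 between mGC1_GFAP and mGC2_NES (95% interval -1.80 to 0.61), by 0.27 ± 0.53 between mGC1_GFAP and mGC3_CNP (-0.93 to 1.48) and by 0.87 ± 0.53 between mGC2_NES and mGC3_CNP (-0.34 to 2.07). Igf1r was held more closely, at -0.11 ± 0.13, -0.16 ± 0.13 and -0.05 ± 0.13 in the same order, with bounds from -0.46 to 0.24. The order of group means for Igf1r was mGC1_GFAP (10.83 ± 0.08), mGC2_NES (10.94 ± 0.28) and mGC3_CNP (10.99 ± 0.10) (SD, n = 3 each), and no neighbours in it differed beyond their spread. The spread within groups was widest in mGC2_NES and mGC3_CNP for Igfbp2 (SD 0.92 and 0.94, against 0.44 in mGC1_GFAP) and in mGC3_CNP for Igfbp3 (SD 0.73, against 0.07 in mGC1_GFAP). The culture mGC2_NES replicate 3 held the highest tumour value of Igf1r, Igfbp2 and Igfbp7.

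Igfbp2 and Igfbp4 had the widest ranges over the 12 arrays, at 4.64 and 2.51 on the log2 scale. The genes whose pattern was most like that of Igfbp2 over 12 arrays were the metalloprotease gene Adamts9 (Pearson r = 0.972), Acta2, which encodes a smooth muscle actin (0.953), and the transcription factor gene Npas3 (0.953). Over the 9 tumour arrays alone they were the protocadherin gene Pcdh8 (0.952), Adamts9 (0.937) and Sgsm3 (0.921). For Igfbp4 they were Ecrg4 (0.957), the centrin gene Cetn2 (0.950) and Cdkl4 (0.946) over 12 arrays, and Thap11 (0.955), Olfr1137 (0.933) and Naa25 (0.922) over 9. Gene names of the Gm, Rik, LOC, Mir and Snor kind were left out of this search among the 21780 probe sets. The values given are the highest of the rest over few arrays. Over 12 arrays they include the gap between tumour and NSC cultures, so they describe likeness and carry no test.

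The rest of the pathway was followed through lists of 96 genes, of which 84 were measured. In tumour cultures 28 rose, 19 fell and 37 did not pass, with a median difference of 0.01. Most lists therefore moved in both directions, at a rate of calls to be read against 36.7% of all probe sets. Where a gene had several probe sets, that with the smallest p in this comparison was taken. The other probe set disagreed for Socs3 and Akt2, which were called by 1 of 2 probe sets.

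**Figure D4:**
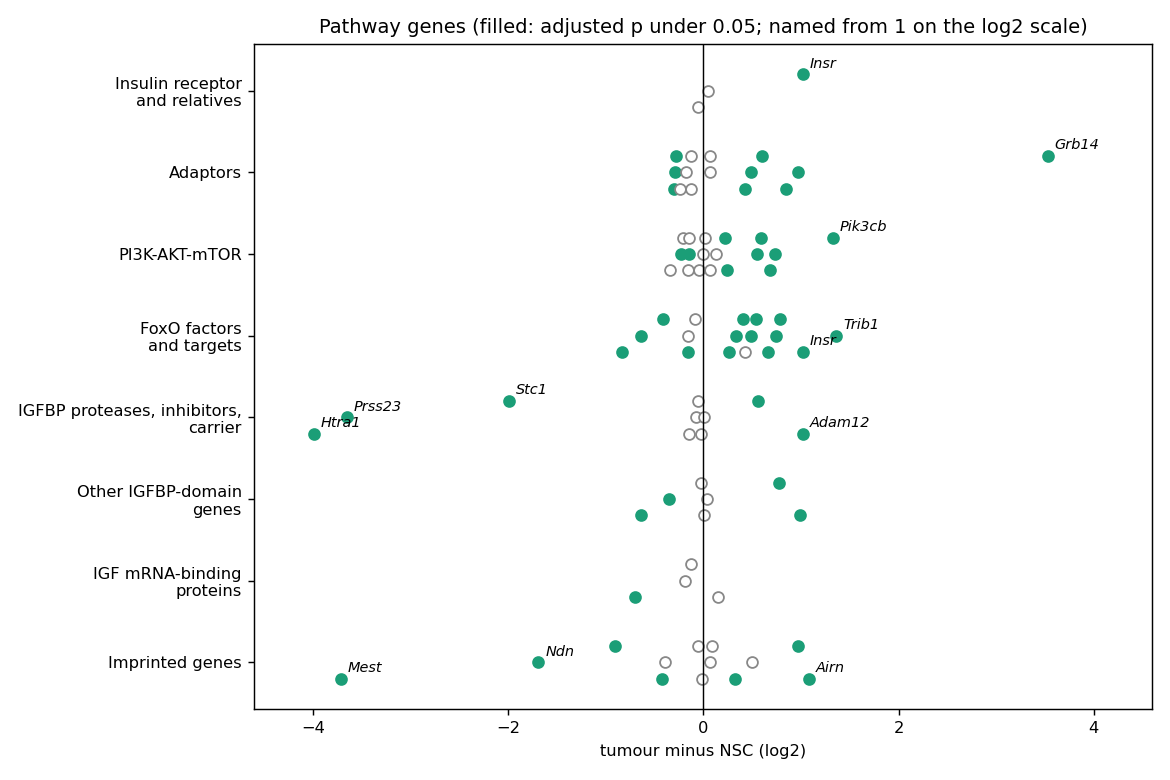
Tumour minus NSC difference (log2, horizontal axis) of the 84 measured pathway genes by list, with filled points for an adjusted p under 0.05 and names for called genes that differ by at least 1. Grb14 at 3.53 stands at the right end, and Htra1, Mest and Prss23 lie at the left end between -3.99 and -3.65.

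Insr, the receptor that binds insulin and, in its A form, Igf2, rose with Igf1r. Its first probe set read 10.36, 10.50 and 10.40 in the C/tv-a, N/tv-a and G/tv-a NSC cultures and 11.04 to 11.63 (median 11.45) in the 9 tumour cultures, with no overlap. The rise was 1.02 ± 0.11 (limma adjusted p = 1.68e-05), and a second probe set rose by 0.94 ± 0.10 (adjusted p = 2.19e-05). The related receptor Insrr and the insulin gene Ins2 read below the reference and did not pass, so 1 of 3 measured genes of this list rose.

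Of 15 adaptors and feedback regulators, 6 rose, 3 fell and 6 did not pass (median 0.07). Grb14, an inhibitory adaptor of the insulin receptor, rose by 3.53 ± 0.19 (adjusted p = 7.02e-08), from 7.78 to 11.31. The adaptor Gab1 rose by 0.85 ± 0.13, Irs2 by 0.49 ± 0.14, the imprinted inhibitory adaptor Grb10 by at least 0.97 ± 0.22 and the cytokine signalling inhibitor Socs2 by at least 0.60 ± 0.13. Irs1, the other main substrate of these receptors, differed by -0.13 ± 0.15 (adjusted p = 0.554). By group, Socs2 was called only in mGC2_NES (mean 7.96, against 6.86 in NSC). It differed by 0.28 ± 0.16 in mGC1_GFAP and 0.41 ± 0.16 in mGC3_CNP (adjusted p = 0.234 and 0.0799). Its tumour mean, 7.46, lay under the 7.77 of Prm1, and against that level both sides were at background. A second Socs2 probe set was called at 1.3. Grb10 was called in mGC1_GFAP and mGC3_CNP but not in mGC2_NES (0.45 ± 0.27, adjusted p = 0.235). The falls were small, at -0.30 ± 0.10 for Irs4 with both means below the reference, -0.29 ± 0.06 for the phosphatase gene Ptpn1 and -0.28 ± 0.09 for the inhibitor gene Socs3. Irs2 lost its call without the G/tv-a NSC culture (0.38, adjusted p = 0.0962), which leaves 5 rises. Irs4 lost its call without any of 7 single arrays and Socs3 without any of 5, Irs4 at -0.16 without the N/tv-a NSC and at -0.29 without mGC2_NES replicate 2, and Socs3 at -0.20 without the C/tv-a NSC. Without mGC2_NES replicate 2 the list held 2 falls, and over all single arrays 1 to 4.

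Of 18 measured genes of the PI3K-AKT-mTOR cascade, 7 rose, 2 fell and 9 did not pass (median 0.05). The catalytic subunit gene Pik3cb rose by 1.33 ± 0.11 (adjusted p = 1.74e-06), the regulatory subunit gene Pik3r1 by 0.68 ± 0.07, the mTORC2 component Rictor by 0.73 ± 0.08 and the mTORC1 inhibitor Ddit4 by 0.59 ± 0.14. The kinase genes Akt1 (-0.23 ± 0.05) and Akt2 (-0.15 ± 0.05) fell, and Akt2 lost its call without any of 7 single arrays, all 3 NSC arrays among them, at -0.17 to -0.14. Leaving out single arrays gave 4 to 7 rises and 1 to 3 falls. Without the G/tv-a NSC culture there were 6 rises and 1 fall, with Pdpk1 (0.23, adjusted p = 0.0571) and Akt2 lost, and without mGC2_NES replicate 2 there were 3 falls, Pik3r2 added (-0.24, adjusted p = 0.0456).

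Of 17 FoxO factors and reported FoxO targets, 10 rose, 4 fell and 3 did not pass (median 0.41). By group against NSC, 5 rose and 3 fell in mGC1_GFAP (median 0.11), 10 and 2 in mGC2_NES (0.39), 8 and 2 in mGC3_CNP (0.41). Among all probe sets 29.3%, 34.9% and 30.3% were called in these comparisons. Over all tumour cultures, genes that rose included the pseudokinase gene Trib1 (1.36 ± 0.17), the cyclin gene Ccng2 (0.79 ± 0.11) and the ubiquitin ligase gene Fbxo32 (0.74 ± 0.23). Insr and Irs2, which also belong to other lists, rose too. Fbxo32 was called only in mGC2_NES (1.56 ± 0.28), against 0.17 ± 0.28 in mGC1_GFAP and 0.51 ± 0.28 in mGC3_CNP. The genes that fell over all tumour cultures were Foxo1 itself (-0.64 ± 0.18), the transcription factor gene Klf15 (-0.41 ± 0.09), the metabolic kinase gene Pdk4 (-0.83 ± 0.11, both means below the reference) and Foxo6 (-0.16 ± 0.06, a lower bound). Without the G/tv-a NSC culture 7 rose and 3 fell, with Fbxo32 (0.48, adjusted p = 0.152), Foxo3 (0.20, adjusted p = 0.111), Irs2 and Foxo6 lost. Foxo1 lost its call without the C/tv-a NSC (-0.57, adjusted p = 0.0717), and Foxo6 without any of 10 of the 12 arrays, at -0.17 to -0.15, mGC2_NES replicate 2 and all 3 NSC arrays among them. Without mGC2_NES replicate 2 the list held 3 falls.

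Proteases that act on binding proteins, their inhibitors and the serum carrier gene Igfals made a list of 10, of which 2 rose, 3 fell and 5 did not pass (median -0.07). Htra1, a secreted serine protease that can cut Igfbp5, fell from 10.81 to 6.82 (difference -3.99 ± 0.09, a lower bound on the size, limma adjusted p = 8.58e-11). The secreted serine protease gene Prss23 fell by 3.65 ± 0.15 on the log2 scale, to a mean of 7.77 at the level Prm1 reached, and Stc1, an inhibitor of Pappa, differed by -1.99 ± 0.29, a lower bound on the size. The metalloprotease gene Adam12, whose product cuts Igfbp3 and Igfbp5, rose by 1.02 ± 0.11, and Adam9 by 0.56 ± 0.07. Pappa and Pappa2, the proteases of Igfbp4 and Igfbp5, read 6.34 and 6.41 in tumour cultures and 6.33 and 6.49 in NSC, below the reference on both sides. The counts of this list did not move when any single array was left out.

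Among 7 measured genes that carry the binding protein domain outside the family, 2 rose and 2 fell. Crim1, a membrane protein, rose by 0.99 ± 0.22 and Kazald1 by at least 0.77 ± 0.21, the latter not called without the N/tv-a NSC (0.71, adjusted p = 0.0531). Kazald1 read 6.67 in NSC and 6.75 in mGC1_GFAP, both below the reference, 7.97 in mGC2_NES and 7.61 in mGC3_CNP. Its mean over tumour cultures, 7.44, lay under the 7.77 of Prm1, and against that level both sides were at background. The serine protease gene Htra3 fell by 0.64 ± 0.07 on the log2 scale, to a mean of 7.55 that is under the 7.77 of Prm1, and Igfbpl1 differed by -0.35 ± 0.06 with both means below the reference. Of 4 measured genes for proteins that bind or regulate IGF transcripts, Igf2bp3 was called, at -0.70 ± 0.08 with both means below the reference. Hmga2, a chromatin protein that raises Igf2bp2 transcription, joined it without the G/tv-a NSC culture, at -0.75 (adjusted p = 0.00699) against -0.19 with it (adjusted p = 0.701), which makes 2 falls.

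The imprinted genes, among which Igf2, Igf2r and Grb10 belong, were set beside them as a list of 13 measured genes, of which 3 rose, 4 fell and 6 did not pass (median -0.01). Mest, a growth-promoting gene expressed from the paternal copy, fell by 3.71 ± 0.42 on the log2 scale (adjusted p = 3.09e-05), from 13.17 to 9.45. The growth-restraining gene Plagl1, a transcriptional regulator of other imprinted genes, fell by 0.91 ± 0.16 on the log2 scale. The falls of Ndn (-1.69 ± 0.50) and Zim1 (-0.42 ± 0.11) were called too, Zim1 with both means below the reference. Airn, the antisense transcript through the Igf2r locus, rose by 1.08 ± 0.14 (adjusted p = 8.37e-05), from 7.97 to 9.05, in the same direction as Igf2r, and whether the probe sets of both keep their strands apart was not tested. Phlda2 rose by 0.32 ± 0.06, below the reference on both sides. Without the G/tv-a NSC culture 2 of the 4 falls were called, with Ndn (-1.73, adjusted p = 0.0523) and Zim1 (-0.31, adjusted p = 0.0802) lost, and Ndn also lost its call without the C/tv-a (-1.78) or the N/tv-a NSC (-1.55).

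Between tumour groups 9 pathway genes were called, all between mGC1_GFAP and mGC2_NES, 2 higher and 7 lower in mGC1_GFAP, out of 84 (6.13% of all probe sets, 3.12% higher and 3.02% lower). The exchange factor gene Sos1 was higher by 0.54 ± 0.08 (adjusted p = 0.00740) and Zim1 by 0.56 ± 0.13, with both Zim1 means below the reference. Lower in mGC1_GFAP were Fbxo32 (-1.40 ± 0.24), Kazald1 (-1.22 ± 0.27, a lower bound), the PI3K inhibitor gene Pik3ip1 (-1.05 ± 0.12, adjusted p = 0.00323), Socs2 (-0.82 ± 0.18, a lower bound), the lysosomal protease gene Ctsd (-0.61 ± 0.15), Ccng2 (-0.55 ± 0.11) and Adam12 (-0.37 ± 0.09). Sos1 and Pik3ip1 were called under every alternative tried, and the other 7 lost their call without at least 1 single array of these groups. Without mGC2_NES replicate 2, the calls of Fbxo32 (-1.28, adjusted p = 0.0531), Adam12 (-0.43, adjusted p = 0.0547) and Kazald1 (-1.33, adjusted p = 0.0675) were lost. Those of Ccng2 (-0.50, adjusted p = 0.076), Zim1 (0.60, adjusted p = 0.0791) and Ctsd (-0.57, adjusted p = 0.1345) were lost too. Only Sos1, Pik3ip1 and Socs2 kept their calls without that array. In mGC1_GFAP against mGC3_CNP and in mGC2_NES against mGC3_CNP, 0 of 84 were called by limma, against 0.487% and 0.459% of all probe sets. Calls were thus rare throughout the arrays in these pairs.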

How the data were processed

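RNA of 12 cultures was measured on 12 arrays, 1 per culture. The deposited values are log2 expression summaries made by the authors. The submitters' processing notes name RMA and Affymetrix Expression Console, and RMA includes quantile normalization, which removes shifts shared by all probe sets. Of 28270 probe sets, 21780 had 1 gene symbol in the array annotation and were tested, 1617 had several and 4873 were not listed. The differences were fitted with limma 3.58.1 in R 4.3.3 (lmFit, eBayes), with 4 groups for comparisons with NSC and the 3 tumour groups alone for comparisons between them. The tumour side is the mean of its 3 group means. Errors are standard errors unless marked SD, and p-values were adjusted by Benjamini-Hochberg over all 21780 probe sets, with a call at an adjusted p under 0.05. The code was tested on simulated data. The number of arrays limits the precision.

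The members and lists were chosen with earlier results of these data known. Named were all 10 members, Insr, Irs1 and Irs2, up to 4 of the largest called rises and falls of each list in tumour against NSC cultures, every list gene called between tumour groups, and the probe sets most like the 2 members of widest range. S100b, Aldoc, Hmga2, Foxo3, Pdpk1 and Pik3r2 were named after their values were seen, as were Vwf, Pecam1, Emcn and the microglial markers. Chromosomal neighbours were read for every member, and not all of them are named. Genes with several probe sets are read by the smallest p in tumour against NSC cultures. Prm1 was left out of the background reference after its values were seen, and the alternatives for pathway genes were also added then. Alternatives were a mouse line or replicate block, other group structures, a trended variance prior, a filter on low values, repeated quantile normalization, all probe sets tested, and each array left out. Deviations from the group means correlated at 0.132 to 0.254 for the 3 same-numbered pairs of mGC2_NES and mGC3_CNP, whose numbers may thus mark pairs. The pairs of mGC1_GFAP with mGC2_NES (0.00224 to 0.107) and with mGC3_CNP (0.0287 to 0.254) were not all over 0.1. All differences and intervals between tumour groups in the Results were fitted without pairs. The replicate block was run only as an alternative. The labels name nothing that a number marks.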

Additional observations from a re-analysis of the deposited data

Results flagged for a closer look

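Igfbp7 in mGC2_NES replicate 3 read 9.47, far above the next of the 9 tumour cultures at 8.44, a gap of 0.53 of the whole range. It was the only such case among the 10 genes tested over the tumour arrays, and chance alone marks about 1 in 20 groups. Without that array the Igfbp7 difference of mGC2_NES from NSC was -0.22, and that between mGC1_GFAP and mGC2_NES was 0.30.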

How the results depend on the processing

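The numbers of members called stayed within 1.5 times their reported value under every alternative run. With each array left out in turn, 5 to 6 members were called in tumour against NSC cultures, 5 to 6 in mGC1_GFAP, 4 to 7 in mGC2_NES and 5 to 5 in mGC3_CNP against NSC, and 0 to 0 in each comparison of tumour groups. With the replicate block 0 members were called between tumour groups, and all probe sets called numbered 856 by the F test, 1436, 74 and 121 for mGC1_GFAP against mGC2_NES, mGC1_GFAP against mGC3_CNP and mGC2_NES against mGC3_CNP, against 882, 1336, 106 and 100 without it. All 9 same-numbered correlations between tumour groups were above 0, against 4 of 18 with different numbers (-0.194 to 0.134), but mGC1_GFAP replicate 1 correlated best with mGC3_CNP replicate 3. Between mGC2_NES and mGC3_CNP, whose numbers may mark pairs, the block changed no call of a member or pathway gene. In that fit Adam12 (adjusted p = 0.0510) and Zim1 (adjusted p = 0.0724) were not called between mGC1_GFAP and mGC2_NES.

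Counts of all probe sets called between tumour groups moved further. Leaving out single arrays gave 222 to 945 by the F test, 534 to 1619 for mGC1_GFAP against mGC2_NES, 24 to 106 for mGC1_GFAP against mGC3_CNP and 42 to 133 for mGC2_NES against mGC3_CNP, and 6777 to 8114 for tumour against NSC cultures. Testing all probe sets of the table gave 165 and 164 in the pairs with mGC3_CNP, and all 12 arrays in the fit gave 65 for mGC1_GFAP against mGC3_CNP. The filter on low values kept 13099 probe sets and removed Igf1, Igf2 and Igfbp6.

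Uncalled differences that changed sign when an array was left out ranged as follows. For mGC1_GFAP against mGC3_CNP they were -0.05 to 0.01 for Igf1, -0.24 to 0.69 for Igfbp2, -0.39 to 0.27 for Igfbp3 and -0.30 to 0.11 for Igfbp4. For mGC2_NES against mGC3_CNP they were -0.21 to 0.04 for Igf1r, -0.06 to 0.18 for Igf2r, -0.62 to 0.04 for Igfbp3, -0.28 to 0.41 for Igfbp5 and -0.49 to 0.48 for Igfbp7. For mGC1_GFAP against mGC2_NES they were -0.20 to 0.05 for Igf1r, -0.02 to 0.26 for Igfbp4 and -0.68 to 0.30 for Igfbp7. Against NSC they were -0.11 to 0.04 for Igf1 and -0.22 to 0.76 for Igfbp7 in mGC2_NES, and -0.03 to 0.09 for Igf2 and -0.05 to 0.23 for Igfbp7 in mGC1_GFAP. Of 39 pathway genes named by rule in tumour against NSC cultures, 11 changed their call under some alternative. Foxo3, Pdpk1, Pik3r2 and Hmga2, named after their values were seen, are not in that count and changed their calls as given above. With the tumours as 1 group of 9, Socs2 (adjusted p = 0.0689), Fbxo32 (0.180), Kazald1 (0.109) and Zim1 (0.0928) were not called, and Akt2 was not after repeated quantile normalization (0.0714). The causes were not tested.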
